A study of Mus musculus with 6 samples.

Results

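The transcripts described here are the multi-exon intergenic isoforms of mouse spinal cord, which are RNAs assembled from sequencing reads that were spliced at least once and that the assembly placed outside every reference gene. They were chosen as the isoforms with class code u, the code for an unannotated intergenic transcript, and with 2 or more exons. In the table of 194125 isoforms, 25529 carried that code. Of these, 25015 had a single exon and 514 had 2 or more, which makes the multi-exon ones 2.01% of the intergenic isoforms. The 514 isoforms belonged to 443 assembled loci, of which 52 gave several isoforms, with at most 6 at a locus.

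The study profiled noncoding RNA in spinal cords from mice of the inbred strain C57BL/6, all males aged 8 weeks. The TSCI group (traumatic spinal cord injury) had a laminectomy, the surgical opening of the vertebral arch, followed by a blow to the exposed cord from a dropped weight. The sham group had the laminectomy alone, so both groups share the surgery and its anesthesia. Each group had 3 libraries of total RNA depleted of ribosomal RNA. The labels name 48 mice in sets of 8 and state neither whether a set was pooled nor the time between injury and tissue collection, so p-values measure only the spread between these libraries. The level of an isoform is given in FPKM, the number of sequenced fragments per kilobase of transcript, scaled to the mapped fragments of the library.

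Spliced RNAs from outside annotated genes are mostly long noncoding RNAs, unannotated first or last exons of known genes, and transcripts of pseudogenes. Long noncoding RNAs are made and spliced much as messenger RNAs are, but many are low in level and limited to a few cell types, and the nervous system holds many of them. Some serve as host transcripts that are cut into microRNAs or small nucleolar RNAs, others act at the chromosome where they are made, and for most no role is known.

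The starts of 53 of 492 comparable isoforms lay within 100 bases of a start that RefSeq (GRCm38.p6) gives for a gene on the same strand and those of 85 within 500 bases. Promoter windows of 4 such genes are shown from 250 bases before to 50 bases after the RefSeq start, 5′ to 3′ on the strand of the gene. The first belongs to the isoform that passed the test, the next pair to one isoform with sham libraries at 0 and one with TSCI libraries at 0, and the last to Snhg14, an imprinted host transcript of small nucleolar RNAs, whose isoform MSTRG.101771.1 was chosen after its values were seen. Capitals mark the core of the TATA box, spelled TATAAA, and the CCAAT box, both searched on either strand together with the GC box, spelled GGGCGG. The letters ATTGG stand for the CCAAT box on the other strand.
D17H6S56E-5 (MSTRG.48754.1), chr17:35000697-35000996, minus strand: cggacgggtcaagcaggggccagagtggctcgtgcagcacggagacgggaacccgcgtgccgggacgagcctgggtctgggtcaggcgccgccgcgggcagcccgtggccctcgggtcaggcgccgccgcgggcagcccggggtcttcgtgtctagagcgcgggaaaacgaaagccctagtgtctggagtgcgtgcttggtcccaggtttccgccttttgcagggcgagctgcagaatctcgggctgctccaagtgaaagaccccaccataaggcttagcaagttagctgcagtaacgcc
Gm29958 (MSTRG.18007.2), chr11:63618951-63619250, plus strand: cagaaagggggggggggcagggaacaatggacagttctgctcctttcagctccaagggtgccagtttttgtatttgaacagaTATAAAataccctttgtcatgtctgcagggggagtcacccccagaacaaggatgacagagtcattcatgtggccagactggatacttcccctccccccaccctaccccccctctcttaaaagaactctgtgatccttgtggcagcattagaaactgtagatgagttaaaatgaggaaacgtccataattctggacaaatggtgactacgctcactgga
Gm46333 (MSTRG.21972.6), chr12:5847505-5847804, plus strand: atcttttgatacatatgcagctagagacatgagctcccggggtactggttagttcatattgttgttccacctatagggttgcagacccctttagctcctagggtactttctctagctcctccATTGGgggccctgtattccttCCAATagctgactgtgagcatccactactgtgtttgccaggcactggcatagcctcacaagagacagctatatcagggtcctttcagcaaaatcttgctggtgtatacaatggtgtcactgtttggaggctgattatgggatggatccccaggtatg
Snhg14 (MSTRG.101771.1), chr7:60450128-60450427, minus strand: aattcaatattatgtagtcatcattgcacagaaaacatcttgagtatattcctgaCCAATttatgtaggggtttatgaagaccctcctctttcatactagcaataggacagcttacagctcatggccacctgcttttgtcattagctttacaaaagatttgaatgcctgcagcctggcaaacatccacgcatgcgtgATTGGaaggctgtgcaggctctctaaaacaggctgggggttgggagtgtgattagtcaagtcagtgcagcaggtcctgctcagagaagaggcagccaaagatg

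The D17H6S56E-5 window held none of the 3 motifs, had a GC content of 67.0% and held 29 CG dinucleotides, against medians of 52.7% and 7 over all 32851 windows. The Gm29958 window held 1 TATAAA, and the Gm46333 and Snhg14 windows held 2 CCAAT each, with 1 of each pair on the other strand. Over the 74 windows that lay nearest to the 85 isoforms within 500 bases, 10.8% held TATAAA, 33.8% CCAAT and 25.7% GGGCGG, against 13.6%, 37.4% and 35.7% of all windows. A match is a description of these letters only, and the absence of one says nothing about any factor.

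A further isoform, MSTRG.26068.1, lay between a pair of microRNA hairpins of chromosome 12, Mir543 and Mir495, on the same strand. These belong to the imprinted Dlk1-Dio3 microRNA cluster, which is read as long spliced host transcripts. The isoform began 609 bases after the Mir543 hairpin and ended 87 bases before that of Mir495. The mature arms in RefSeq are shown because they are the annotated RNAs next to it, with the seed, bases 2 to 8, in capitals.
mmu-miR-543-5p: aAGUUGCCcgcguguuuuucg
mmu-miR-543-3p: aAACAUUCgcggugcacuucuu
mmu-miR-495-5p: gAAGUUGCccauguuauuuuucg
mmu-miR-495-3p: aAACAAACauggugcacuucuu
No seed was shared among the 4 arms.

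Most of the isoforms were short and had few exons. Of the 514, 337 had 2 exons, 119 had 3, 37 had 4 and 21 had 5 or more, up to 34. The spliced length had a median of 384.5 bases and ranged from 200 to 9543 bases, against medians of 263 bases for single-exon intergenic isoforms and 1414 bases for multi-exon isoforms of known transcripts. On the genome they spanned a median of 4868.5 bases, from 290 to 90673 bases, and their mean intron had a median of 3133.5 bases. The plus strand held 276 and the minus strand 238.

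The class name was checked against other annotations. By GENCODE M21, a gene annotation on GRCm38, 196 of the 514 (38.1%) overlapped an annotated gene, and 189 of these overlapped one on the same strand. The overlapped genes were long noncoding in 117 cases, protein-coding in 53, pseudogenes in 24 and of undetermined type in 2. A RefSeq gene was overlapped by 360 (70.0%), and 131 isoforms overlapped a gene of neither annotation. The 318 isoforms outside GENCODE genes lay a median of 10.2 kb from the nearest gene and at most 193 kb from it. Within 5, 10 and 50 kb of a gene or overlapping one were 59.7%, 67.3% and 89.9% of all 514. The word intergenic therefore refers to the annotation used for the assembly, and no source used here names it.

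Chromosome 12 held the most, 52 isoforms from 40 loci, which is 10.1% of the 514 against 3.25% of all isoforms and 5.66% of single-exon intergenic ones. Chromosome 13 held 41, chromosomes 15 and 17 held 38 each and chromosome 7 held 32. At the other end, chromosome 5 held 9, or 1.75% against 6.93% of all isoforms, the X chromosome held 10, and none lay on Y or on the mitochondrial genome. None of the 514 overlapped the span of any of the 17440 circular RNAs in the deposited circular RNA table, nor did any of the 25015 single-exon intergenic isoforms, whereas 32.5% of multi-exon isoforms of known transcripts did.

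The libraries differed in ways that the groups do not explain, and these differences touch all the values that follow. The aligned bases implied by FPKM and coverage ranged from 4.46 to 9.16 gigabases over the TSCI libraries and from 4.80 to 8.20 gigabases over the sham libraries. TSCI 1 and sham 1 came from sequencing lane 8, sham 2 from lane 3 and the others from lane 1. Of all isoforms, 44.3% to 60.6% had an FPKM above 0 in the TSCI libraries, against 57.8%, 17.9% and 32.8% in sham 1, 2 and 3. The tissue label was checked by markers, and those of neurons, oligodendrocytes and astrocytes were found in every library, with sums of 4 neuronal genes (Snap25, Syt1, Rbfox3, Eno2) between 159 and 369 FPKM in TSCI and between 236 and 565 FPKM in sham libraries. The sum of 3 macrophage genes (Msr1, Cd68, Arg1) was 147, 426 and 289 FPKM in TSCI 1 to 3, against 4.31, 2.67 and 4.79 FPKM in sham 1 to 3. The microglia gene Tmem119 had 17.4, 20.2 and 34.5 FPKM in TSCI 1 to 3, against 6.17, 1.31 and 7.09 FPKM in sham 1 to 3, whereas the groups overlapped for the microglia genes Cx3cr1 and P2ry12. The sum of 3 erythrocyte genes (Hba-a1, Hbb-bs, Alas2) ran from 5126 to 97859 FPKM in TSCI and from 1768 to 25059.8 FPKM in sham libraries, and those groups overlapped. The sum of 4 skeletal muscle genes (Acta1, Ckm, Mb, Mylpf) was 0.0468, 11 and 1.58 FPKM in TSCI 1 to 3, against 1.5, 63.1 and 25 FPKM in sham 1 to 3, with Ckm, Mb and Mylpf at 0 in TSCI 1. In such bulk samples, fewer cells of a type and less RNA per cell cannot be told apart.

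The multi-exon intergenic isoforms were low in level and irregular in detection. The mean over the 6 libraries had a median of 0.834 FPKM, 206 isoforms reached a mean of 1 FPKM and 12 reached 5 FPKM. Only 71 were above 0 in all 6 libraries, and 80 were above 0 in a single library. The number above 0 was 265, 349 and 370 in TSCI 1 to 3, against 331, 180 and 307 in sham 1 to 3, so sham 2 listed the fewest. An exact 0 can be a failed estimate of the assembler, so a library at 0 is described as listed at 0. Where an isoform was above 0, the median number of aligned bases behind it was 3693, 2737 and 3522 in TSCI 1 to 3, against 2850, 11616 and 7145 in sham 1 to 3, so isoforms above 0 in sham 2 had the most bases behind them.

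Summed over the 514 isoforms, the level was 560, 367 and 468 FPKM in TSCI 1 to 3, against 545, 1413 and 830 FPKM in sham 1 to 3. The ranges of the groups overlapped, with sham 1 below TSCI 1. The sums averaged 465 ± 96.5 FPKM in TSCI and 929 ± 442 FPKM in sham libraries (SD, n = 3 each). Without the most abundant isoform the averages were 452 ± 107 FPKM in TSCI and 806 ± 328 FPKM in sham libraries. As a share of all isoform bases the set was small, at 0.0777%, 0.0624% and 0.0885% in TSCI 1 to 3, against 0.114%, 0.190% and 0.111% in sham 1 to 3. By this share, unlike the summed FPKM, every TSCI library was below every sham library, and no test was made of it. Each library had isoforms that were highest in it, 97, 36 and 72 in TSCI 1 to 3, against 94, 112 and 103 in sham 1 to 3. Across the 514 isoforms the Spearman correlation between libraries ran from -0.17 between TSCI 1 and sham 3 to 0.43 between TSCI 2 and TSCI 3, which describes these libraries and treats isoforms as points although they share loci.

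Detection was more frequent for longer isoforms in every library. Of the 127 isoforms of 700 bases or more, 81.9%, 89.8% and 91.3% were above 0 in TSCI 1 to 3, against 89.0%, 48.8% and 78.0% in sham 1 to 3. Of the 186 isoforms under 300 bases, 37.6%, 46.8% and 50% were above 0 in TSCI 1 to 3, against 46.8%, 25.8% and 46.2% in sham 1 to 3. The plot of detection by length shows sham 2 lowest in all 3 length ranges and TSCI 3 highest in all 3.

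**Figure D1:**
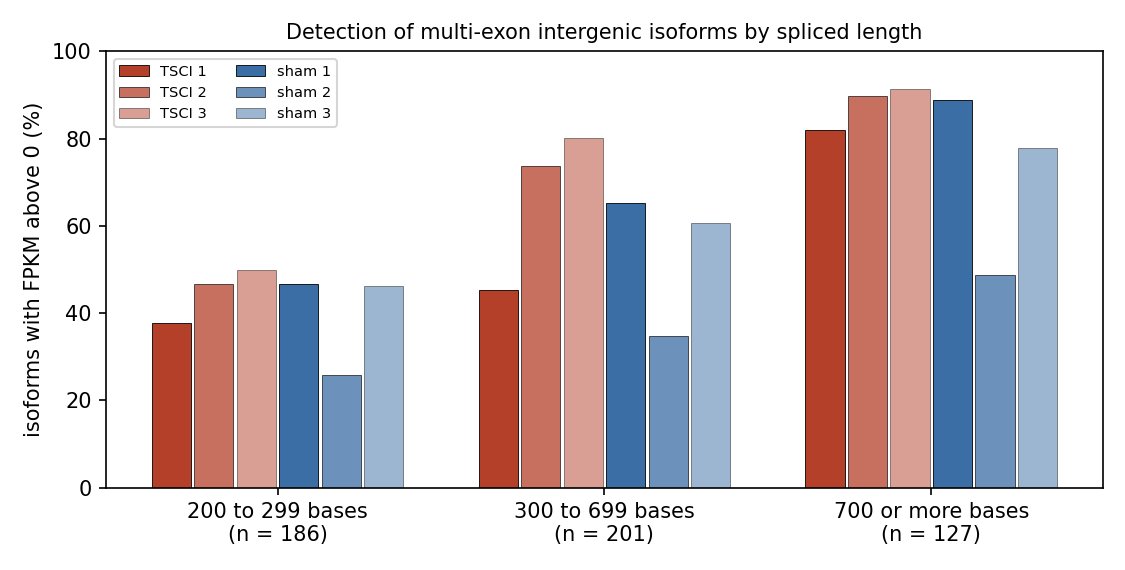
Share of multi-exon intergenic isoforms with an FPKM above 0 (percent, vertical axis) in each of the 3 TSCI and 3 sham libraries, by spliced length (horizontal axis, 186, 201 and 127 isoforms). In sham 2 the share was 25.8%, 34.8% and 48.8% over the 3 lengths, the lowest in each.

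The question of the study is which noncoding RNAs differ after the injury. For these isoforms it was addressed with limma on log2(FPKM + 0.5), fitted on the 89293 isoforms of the whole table with a mean of at least 0.5 FPKM. Of the 514 multi-exon intergenic isoforms, 396 from 345 loci passed that filter and 118 did not, the nearest on each side having means of 0.503 and 0.495 FPKM. A filter on the mean of all libraries can be passed through 1 group alone. At a Benjamini-Hochberg adjusted p under 0.05, 1 of the 396 was called, MSTRG.48754.1, and it was higher in TSCI. Over all tested isoforms 0.208% were called, 0.17% higher and 0.0381% lower in TSCI, so the share among the 396 was near that of the background. The next lowest adjusted p among the 396 in limma was 0.793.

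MSTRG.48754.1 was the only multi-exon intergenic isoform called in this fit. It lay on the minus strand of chromosome 17 from 34996684 to 35000426 (GRCm38), had 2 exons and 3046 bases, and had 22.1, 8.07 and 25.4 FPKM in TSCI 1 to 3, against 1.14, 0 and 0.854 FPKM in sham 1 to 3. Every TSCI library was above every sham library, and sham 2 listed it at 0. It averaged 18.5 ± 9.19 FPKM in TSCI and 0.663 ± 0.592 FPKM in sham libraries (SD, n = 3 each), with a log2 fold change of 4.05 ± 1.04 (SE) and an adjusted p of 0.0468 in limma. The difference was 3.79 on the log2 scale within lane 8 and 3.46 within lane 1. It was the second highest of the 514 by mean level. The variance behind this p is pooled over isoforms, and the call was lost under 13 of 16 other settings, including each library left out except sham 1.

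The span of MSTRG.48754.1 lies in the major histocompatibility region of chromosome 17, which is dense in immune genes. It matched the RefSeq gene D17H6S56E-5, which RefSeq lists as protein-coding from 34996678 to 35000774 on the same strand. Their 3′ ends were 6 bases apart, and the isoform began 348 bases inside the 5′ end of that gene span. From the RefSeq start whose CG-rich window is shown above, it began 320 bases inside. No isoform of the table carried that gene name. The nearest GENCODE gene, Vars, which encodes valyl-tRNA synthetase, lay 561 bases away on the plus strand. Vars had 14.3, 6.01 and 8.29 FPKM in TSCI 1 to 3, against 7.28, 18.1 and 9.46 FPKM in sham 1 to 3, with overlapping groups and an adjusted p of 0.908 in limma over genes. The macrophage sum and Tmem119 had the same split between groups as MSTRG.48754.1, as had Hba-a1 and Alas2 among the erythrocyte genes, and their part in its difference was not tested.

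Counting the called isoform, 28 of the 396 (7.07%, 27 loci) had every TSCI library above every sham library, and 25 (6.31%, 24 loci) had every TSCI library below every sham library. Over all tested isoforms these shares were 5.64% and 1.46%. The share on the lower side thus stood above the background, and that on the higher side was close to it. All 28 differed in the same direction within lane 8 and within lane 1, and so did all 25, which follows from groups that do not overlap. Both shares moved with the libraries used, since fewer libraries overlap less often. On the lower side, 52 of 396 (13.1%) were below with sham 2 left out, against 4.79% of all tested isoforms, and with sham 1 left out 70 (17.7%), against 3.93%. On the higher side, 31 (7.83%) were above without sham 2, against 6.68% of all tested isoforms, and 66 (16.7%) without sham 1, against 16.8%. Without TSCI 2 the counts were 51 higher (12.9%, against 13.7%) and 38 lower (9.60%, against 2.10%), and without sham 3 they were 35 higher (8.84%, against 7.58%) and 41 lower (10.4%, against 4.34%). At an unadjusted p under 0.05, 5 of the 396 were higher and 19 lower in TSCI (1.26% and 4.80%), against 2.86% and 1.14% of all tested isoforms.

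**Figure D2:**
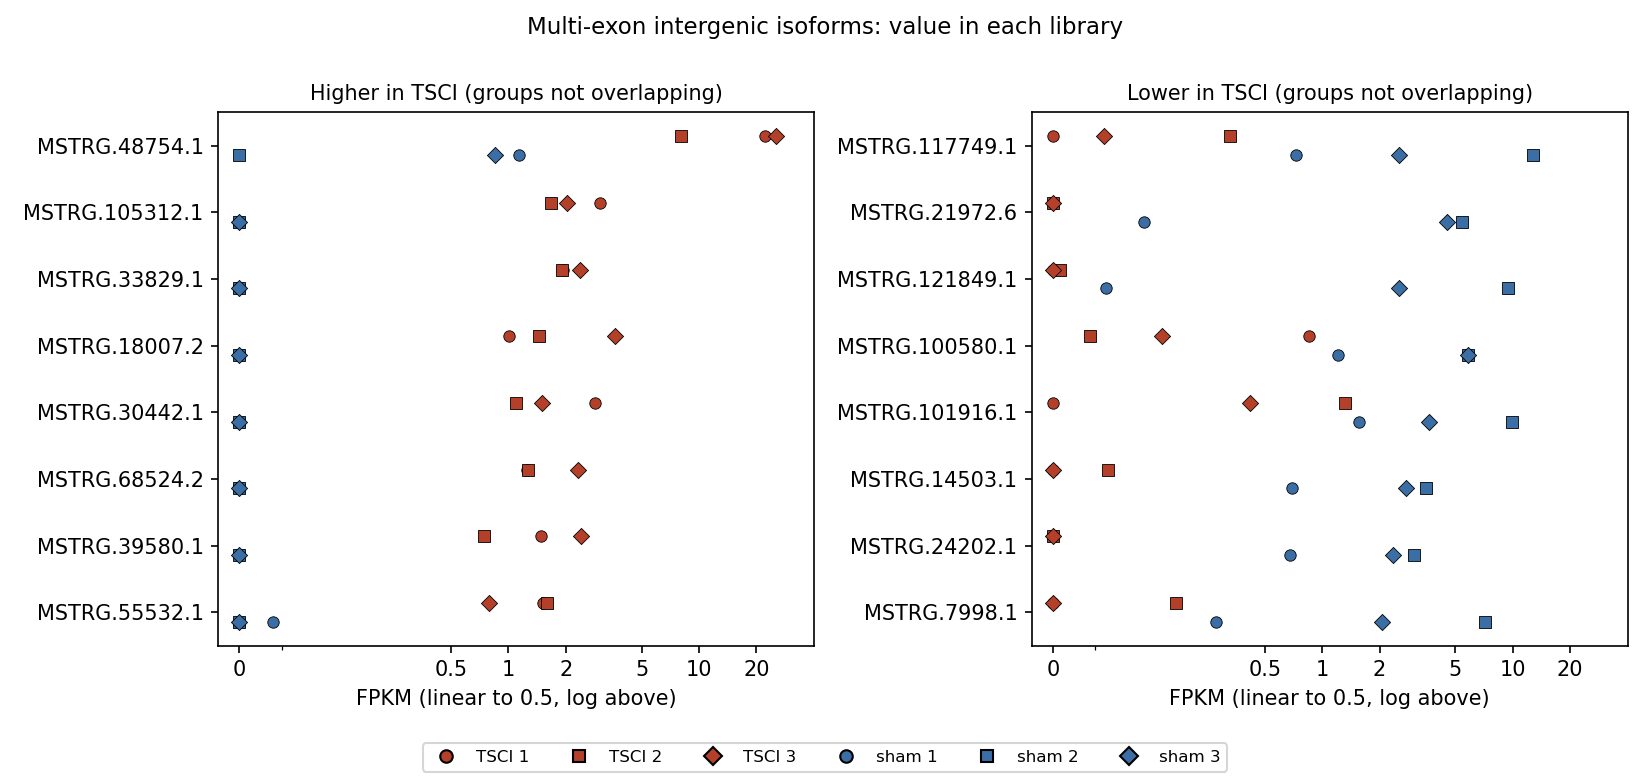
FPKM (horizontal axis, linear up to 0.5 and logarithmic above) in the 3 TSCI and 3 sham libraries for the 8 isoforms furthest above sham (left) and the 8 furthest below it (right) among those whose groups did not overlap. All sham libraries stand at 0 in 6 rows on the left, and sham 2 stands furthest to the right in all 8 rows on the right.

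Of the 28 higher isoforms, 16 were listed at 0 in all sham libraries, and 27 were listed at 0 in sham 2, the library with the fewest isoforms above 0. None of these 28 other than MSTRG.48754.1 passed the test. MSTRG.105312.1, with 2 exons on chromosome 7 from 115386738 to 115387905 and no gene of either annotation overlapping, had 3.01, 1.67 and 2.02 FPKM in TSCI 1 to 3 and was listed at 0 in sham 1 to 3. MSTRG.33829.1, of 3 exons on chromosome 14 from 49113606 to 49122790, overlapped the pseudogene Rpl19-ps3 by GENCODE. It had 1.93, 1.90 and 2.38 FPKM in TSCI 1 to 3 and was listed at 0 in sham 1 to 3. In both, the TSCI libraries stood at 1.67 FPKM or more and no library lay between that and 0.

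Longer isoforms with a RefSeq counterpart showed the same form. MSTRG.18007.2, of 3 exons and 2865 bases on chromosome 11 from 63619180 to 63644447, began 21 bases before the start of Gm29958, which RefSeq lists as protein-coding. It had 1.01, 1.44 and 3.63 FPKM in TSCI 1 to 3, with sham 1 to 3 listed at 0. MSTRG.68524.2, of 3 exons and 2780 bases on chromosome 3 from 33540499 to 33545504, began 155 bases past a RefSeq start of the long noncoding gene Gm34205. It had 1.25, 1.27 and 2.32 FPKM in TSCI 1 to 3, with sham at 0 throughout. MSTRG.30442.1, of 2 exons and 1143 bases on chromosome 13 from 98533309 to 98536032, began 133 bases past a RefSeq start of the long noncoding gene Gm41032. It had 2.85, 1.09 and 1.49 FPKM in TSCI 1 to 3, with sham at 0. No role is annotated for these 3 genes in the tables used here.

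The remaining pair of this list had no overlapping gene. MSTRG.39580.1, on chromosome 15 from 59852004 to 59852995, had 1.47, 0.744 and 2.41 FPKM in TSCI 1 to 3 and was listed at 0 in all sham libraries. MSTRG.55532.1, on chromosome 19 from 8019540 to 8031730, had 1.53, 1.58 and 0.791 FPKM in TSCI 1 to 3, against 0.0788, 0 and 0 FPKM in sham 1 to 3. Against a group at 0 no fold is given, and for the 7 isoforms after MSTRG.48754.1 the adjusted p in limma was 0.793.

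On the lower side, sham 2 was the highest library in 18 of the 25 isoforms, and 2 were listed at 0 in all TSCI libraries. None passed the test, and the adjusted p of the 8 named was 0.793 in limma. MSTRG.21972.6, of 2 exons and 270 bases on chromosome 12 from 5848035 to 5885683, began 280 bases inside the long noncoding gene Gm46333 and was listed at 0 in TSCI 1 to 3, against 0.213, 5.38 and 4.52 FPKM in sham 1 to 3. MSTRG.24202.1, of 2 exons and 218 bases on chromosome 12 from 72071382 to 72072066, began 208 bases past a RefSeq start of Gm3225. It overlapped the RefSeq genes Gm3225 and L3hypdh. By GENCODE it lay 257 bases from Gpr135, an orphan G protein-coupled receptor gene on the other strand. It was listed at 0 in TSCI 1 to 3, against 0.676, 3.02 and 2.37 FPKM in sham 1 to 3. In both isoforms, sham 1 was the sham library closest to the TSCI libraries.

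The other 6 of this list were above 0 in at least 1 TSCI library. MSTRG.117749.1, overlapping Nxpe4 on chromosome 9 from 48232707 to 48244646, had 0, 0.417 and 0.120 FPKM in TSCI 1 to 3, against 0.732, 12.7 and 2.52 FPKM in sham 1 to 3, a log2 fold change of -2.48 ± 1.05 (SE). MSTRG.100580.1, over the RefSeq protein-coding gene Gm36722 on chromosome 7 from 36626589 to 36640668, had 0.849, 0.0866 and 0.257 FPKM in TSCI 1 to 3, against 1.21, 5.85 and 5.83 FPKM in sham 1 to 3, a log2 fold change of -2.28 ± 1.05 (SE). In the first of these sham 2 stood far above the rest, and in the second sham 2 and sham 3 were alike. Nxpe4 itself leaned the other way from its isoform, with 4.29, 0.993 and 2.96 FPKM in TSCI 1 to 3, against 3.50, 0 and 0.508 FPKM in sham 1 to 3. Its groups overlapped, with a log2 fold change of 1.21 ± 0.83 (SE) and an adjusted p of 0.620 in limma over genes. MSTRG.121849.1, on the X chromosome from 5818283 to 5831255, had 0, 0.0157 and 0 FPKM in TSCI 1 to 3, against 0.125, 9.40 and 2.54 FPKM in sham 1 to 3. MSTRG.7998.1, on chromosome 1 from 187556333 to 187565343, had 0, 0.290 and 0 FPKM in TSCI 1 to 3, against 0.383, 7.13 and 2.07 FPKM in sham 1 to 3. Both had sham 1 within 0.5 FPKM of the TSCI libraries. MSTRG.14503.1, on chromosome 10 from 130369265 to 130384542, overlapped the vomeronasal receptor gene Vmn2r84 by GENCODE and no gene by RefSeq. It had 0, 0.129 and 0 FPKM in TSCI 1 to 3, against 0.696, 3.50 and 2.76 FPKM in sham 1 to 3. MSTRG.101916.1, on chromosome 7 from 60742725 to 60743075, had 0, 1.32 and 0.466 FPKM in TSCI 1 to 3, against 1.56, 9.87 and 3.63 FPKM in sham 1 to 3, and belongs to a run of isoforms described below with its neighbours.

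As a set, the tested isoforms leaned the other way from the table as a whole. Their median log2 fold change was -0.41 and 158 of 396 (39.9%) were above 0, against a median of 0.44 and 63.8% over all tested isoforms. Other assembled classes sat near the table, with medians of 0.67 for single-exon intergenic, 0.52 for intronic, 0.35 for antisense and 0.27 for new-junction isoforms, and 0.40 for known transcripts. A whole group was at 0 for 31 isoforms in TSCI and for 35 in sham, where the fold change depends on the 0.5 added to FPKM, and over the other 330 the median was -0.44, with 123 above 0. Within lane 8 the median was 0 (all tested isoforms 0.23), with 128 above and 197 below 0, and within lane 1 it was 0 (all tested isoforms 0), with 174 above and 196 below 0. These are descriptions of the isoforms that passed the filter, and no test was made of the set. Without TSCI 1 the median was -0.68 and that of all tested isoforms was -0.26, so the sign of the background rested on that library. Without both lane 8 libraries the medians were -0.89 and 0.25.

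**Figure D3:**
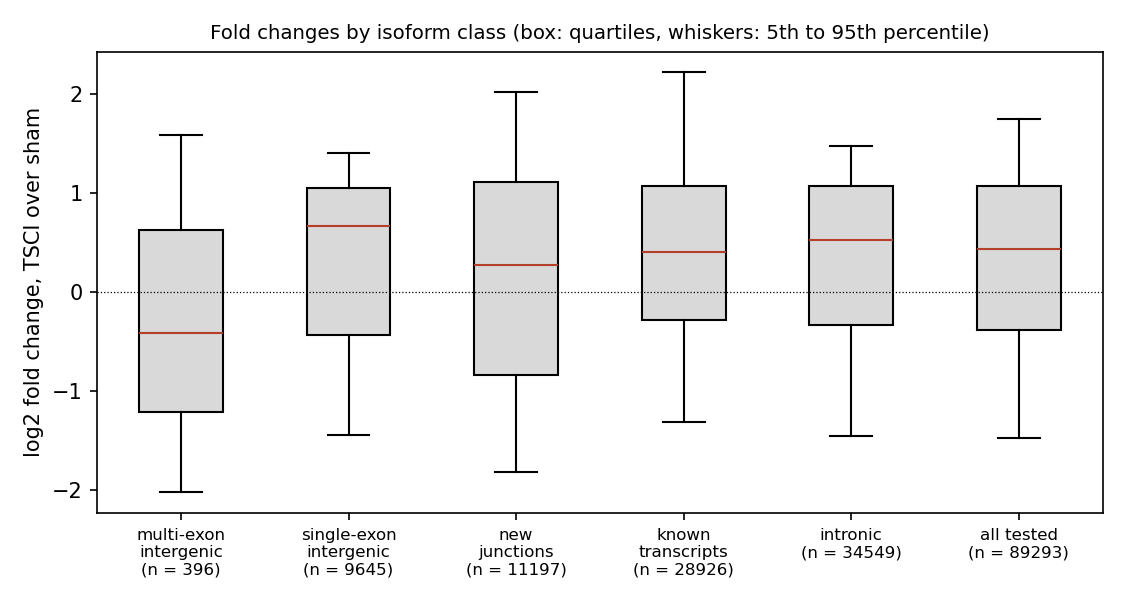
Log2 fold change of TSCI over sham (vertical axis) by class of isoform, with boxes from the lower to the upper quartile, a red line at the median and whiskers from the 5th to the 95th percentile. The median of the multi-exon intergenic isoforms was -0.41 and those of the other classes lay between 0.27 and 0.67.

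The lean differed by length, in an order that depended on the libraries compared. Over all libraries the median log2 fold change was -0.95 for the 124 tested isoforms under 300 bases (38 above 0), -0.31 for the 158 of 300 bases or more but under 700 (67 above 0) and -0.06 for the 114 of 700 bases or more (53 above 0). Within lane 8 the medians in the same order of length were 0, 0 and -0.50, and within lane 1 they were -0.02, -0.50 and 0.33, so neither lane gave the order seen over all libraries. Over all libraries, isoforms with new junctions in known genes had medians of -1.04, -0.43 and 0.34 over the same lengths, whereas single-exon intergenic isoforms had medians of 0.97, 0.33 and -0.08, in the opposite order. Isoforms of 3 or more exons had a median of -0.63 and those of 2 exons one of -0.29. By annotation, the median was -0.11 for isoforms overlapping a GENCODE gene, -0.63 for those overlapping a RefSeq gene alone and -0.73 for those overlapping neither.

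The order of the libraries behind this lean was uneven between the sham libraries, a description chosen after the values were seen. Sham 2 and sham 3 were both above the other 4 libraries in 63 of the 396 isoforms (15.9%, 60 loci), against 3.04% of all tested isoforms, 1.33% of single-exon intergenic, 4.95% of new-junction and 5.29% of known isoforms. These 63 included 18 of the 25 isoforms whose TSCI libraries were all lower. TSCI 1 and sham 1, the lane 8 libraries, were the top pair in 53 of the 396 (13.4%), against 22.9% of all tested isoforms. Sham 2 and sham 3 also had the highest sums of the skeletal muscle genes (63.1 and 25 FPKM), and the part of muscle RNA in these isoforms was not tested.

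The most abundant isoform had that order. MSTRG.37117.1, of 6 exons and 901 bases on the plus strand of chromosome 15 from 5315834 to 5333751, had 4.06, 24.3 and 12.3 FPKM in TSCI 1 to 3, against 10.8, 243 and 117 FPKM in sham 1 to 3. The groups overlapped, since sham 1 was below TSCI 2 and TSCI 3. Its log2 fold change was -2.60 ± 1.05 (SE), with an adjusted p of 0.793 in limma, and without sham 1 the log2 fold change was -3.90 with an adjusted p of 0.00713, in a fit that called 1010 isoforms of the table (1.18%, against 0.208% with all libraries) and 5 of 396 multi-exon intergenic ones (1.26%). It passed in none of the other alternatives. Its library order, sham 2, then sham 3, then TSCI 2, was also that of the skeletal muscle sum, whose part in it was not tested. It overlapped the RefSeq long noncoding gene Gm41257 on its own strand and the processed pseudogene Gm2150 on the other strand.

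Other abundant isoforms divided into those high in sham 2 and sham 3 and those high in sham 1. MSTRG.37123.1, of 4 exons on chromosome 15 from 5422735 to 5458645, had 0, 1.89 and 0.604 FPKM in TSCI 1 to 3, against 0.799, 28.8 and 5.10 FPKM in sham 1 to 3. MSTRG.26068.1, of 2 exons between the microRNA hairpins on chromosome 12 from 109717942 to 109718667, had 0, 3.05 and 0 FPKM in TSCI 1 to 3, against 0, 24.1 and 6.86 FPKM in sham 1 to 3. Each overlapped between groups, since TSCI 2 was above sham 1. In MSTRG.26068.1, sham 1 was also listed at 0, as were TSCI 1 and TSCI 3. The log2 fold changes of these isoforms were -2.45 ± 1.04 and -2.22 ± 1.05 (SE) with an adjusted p of 0.793 in limma. Without sham 1 both passed, at -3.55 and -3.81 with adjusted p of 0.0442 and 0.0237 in limma, in that same fit with its larger number of calls, and neither passed in any other alternative.

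MSTRG.5209.1, of 2 exons and 390 bases on chromosome 1 from 124046121 to 124046895, lay 562 bases from Dpp10 by GENCODE and overlapped it by RefSeq. The Dpp10 product binds and tunes voltage-gated potassium channels of neurons. The isoform had 0, 5.77 and 2.26 FPKM in TSCI 1 to 3, against 1.21, 24.3 and 14.4 FPKM in sham 1 to 3, with sham 1 below TSCI 2 and TSCI 3. Dpp10 itself had 1.89, 1.59 and 2.37 FPKM in TSCI 1 to 3, against 6.39, 19.5 and 3.01 FPKM in sham 1 to 3. Every TSCI library was below every sham library for Dpp10, whose log2 fold change was -1.69 ± 0.74 (SE) with an adjusted p of 0.382 in limma over genes, where 0.89% of genes were called.

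Highest in sham 1 were a further 3 of 2 exons. MSTRG.26370.1, overlapping Rapgef5, a gene for an activator of Rap GTPases, on chromosome 12 from 117758090 to 117759635, had 12.8, 4.15 and 10.9 FPKM in TSCI 1 to 3, against 22.8, 2.12 and 4.18 FPKM in sham 1 to 3. MSTRG.56042.3, overlapping Aldh1a1, whose enzyme makes retinoic acid, on chromosome 19 from 20492998 to 20493722, had 13.4, 3.90 and 9.84 FPKM in TSCI 1 to 3, against 16.9, 0 and 3.27 FPKM in sham 1 to 3. In both, sham 1 was highest and sham 2 lowest, so the sham libraries enclosed the TSCI libraries. Rapgef5 itself had 8.44, 3.08 and 7.45 FPKM in TSCI 1 to 3, against 16.5, 9.45 and 2.94 FPKM in sham 1 to 3. Aldh1a1 had 57.3, 38.7 and 139 FPKM in TSCI 1 to 3, against 83.5, 24.4 and 33.0 FPKM in sham 1 to 3. The groups overlapped for both genes, with log2 fold changes of -0.40 ± 0.74 and 0.72 ± 0.77 (SE). MSTRG.41024.1, which began 4 bases before the RefSeq start of the long noncoding gene Gm19378 on chromosome 15, had 5.68, 3.63 and 7.38 FPKM in TSCI 1 to 3, against 13.2, 3.10 and 2.86 FPKM in sham 1 to 3. Its groups overlapped too, with a log2 fold change of 0.09 ± 1.03 (SE), and the adjusted p of these 3 isoforms in limma ranged from 0.793 to 0.990.

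Several isoforms stood in runs along a chromosome, here 5 or more on 1 strand with gaps of at most 250 kb. The run on the plus strand of chromosome 12 from 5435577 to 6045375 held 10 isoforms of 4 loci, in and around the long noncoding gene Gm32442. Its summed level was 0.245, 4.13 and 5.46 FPKM in TSCI 1 to 3, against 4.27, 76.2 and 29.8 FPKM in sham 1 to 3, where sham 1 lay within the TSCI values. All 8 of its tested isoforms had log2 fold changes below 0, with a median of -1.90, and isoforms of a locus share reads. MSTRG.21945.1, of 6 exons in this run, did not overlap between groups, with 0.245, 0.382 and 0.707 FPKM in TSCI 1 to 3, against 1.39, 3.33 and 7.11 FPKM in sham 1 to 3. It was the isoform of the run with the highest sham 1 value and it was named here after its values were seen.

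The run on the plus strand of chromosome 15 from 5278823 to 5704041 held 8 isoforms of 4 loci, MSTRG.37117.1 and MSTRG.37123.1 among them. It summed to 5.64, 30.4 and 14.7 FPKM in TSCI 1 to 3, against 13.2, 329 and 132 FPKM in sham 1 to 3, again with sham 1 within the TSCI values. The fold changes of all 8 were below 0, with a median of -1.30. Sham 2 and sham 3 were both above the other libraries in 5 of 8 tested isoforms of the chromosome 12 run and in 4 of 8 of the chromosome 15 run.

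**Figure D4:**
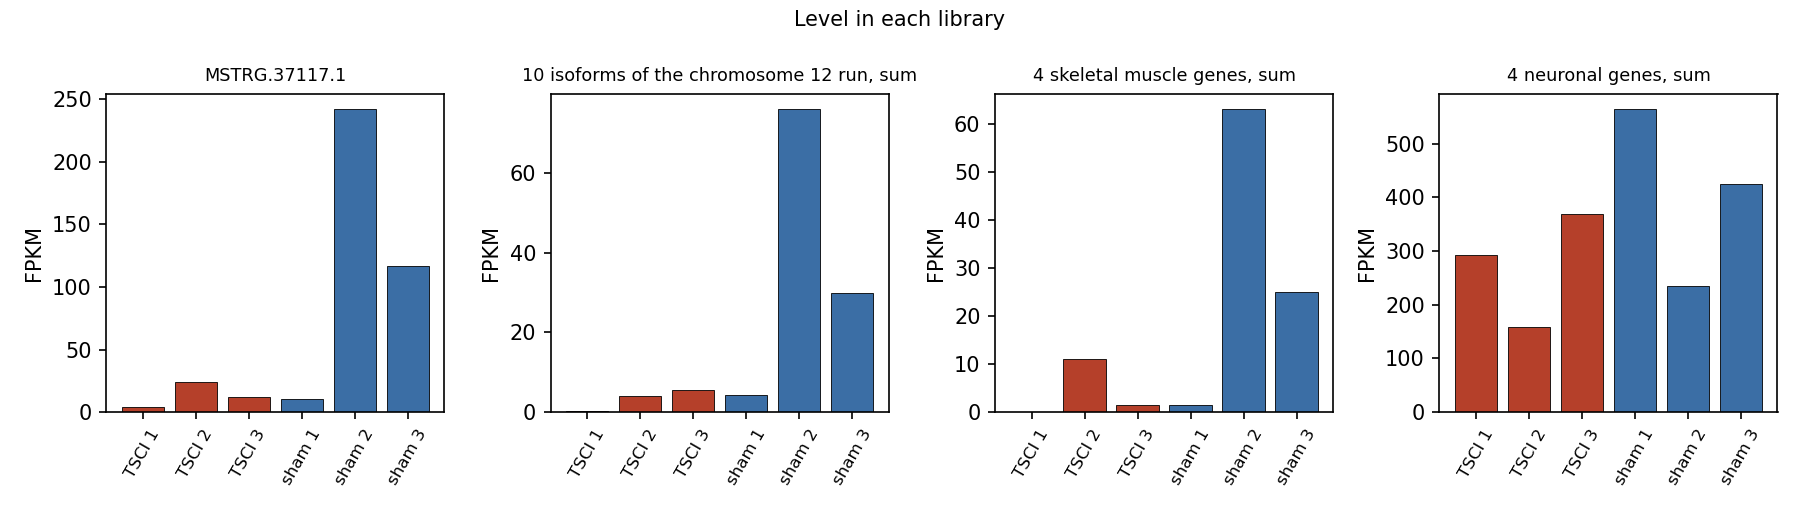
FPKM (vertical axes from 0, each panel on its own scale) in the 3 TSCI and 3 sham libraries for MSTRG.37117.1, the sum of the 10 isoforms of the chromosome 12 run, the sum of 4 skeletal muscle genes and the sum of 4 neuronal genes. Sham 2 is highest and sham 3 next in the first 3 panels, and sham 1 is highest in the neuronal panel (565 FPKM).

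A run on the minus strand of chromosome 7 from 60742725 to 61055540 held 6 isoforms of 5 loci, on the strand of Snhg14 and upstream of its RefSeq start. All 6 fold changes were below 0, with a median of -1.26. The summed level was 6.23, 4.26 and 5.59 FPKM in TSCI 1 to 3, against 15.4, 45.4 and 11.6 FPKM in sham 1 to 3, and here every TSCI library was below every sham library. In 3 of the 6 isoforms the groups did not overlap. One was MSTRG.101916.1, described above, and the others, named after their values were seen, were MSTRG.101959.1 and MSTRG.101960.1. MSTRG.101960.1 had 3.03, 0.948 and 1.69 FPKM in TSCI 1 to 3, against 3.52, 9.48 and 3.62 FPKM in sham 1 to 3, and MSTRG.101959.1 had 1.57, 0.573 and 0.373 FPKM in TSCI 1 to 3, against 2.31, 2.74 and 2.16 FPKM in sham 1 to 3.

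Inside Snhg14 itself, which spans 59272737 to 60450177, MSTRG.101771.1 of 5 exons began 30 bases inside the RefSeq start. It had 1.11, 1.78 and 1.78 FPKM in TSCI 1 to 3, against 1.85, 4.24 and 6.29 FPKM in sham 1 to 3. The groups did not overlap, although TSCI 2, TSCI 3 and sham 1 were close, and its log2 fold change was -1.06 with an adjusted p of 0.793 in limma. MSTRG.101771.2, of the same locus and start, had 0, 0 and 0.857 FPKM in TSCI 1 to 3, against 0.0214, 0 and 0 FPKM in sham 1 to 3. With its level added, TSCI 3 stood above sham 1, so the groups overlapped for the locus. Snhg14 is known as a neuronal transcript in the mouse, and the 4 neuronal genes summed to 293, 159 and 369 FPKM in TSCI 1 to 3, against 565, 236 and 426 FPKM in sham 1 to 3. These neuronal sums overlapped between groups, and their part in the levels of the chromosome 7 isoforms was not tested.

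A run on the plus strand of chromosome 16 from 5884781 to 6499929 held 8 isoforms of 6 loci, and all 8 overlapped Rbfox1, a regulator of splicing in neurons, by GENCODE M21. Of these, 5 were tested, with fold changes below 0 and a median of -0.64. They summed with the others to 11.7, 3.32 and 2.83 FPKM in TSCI 1 to 3, against 15.9, 6.89 and 18 FPKM in sham 1 to 3, where TSCI 1 lay within the sham values. On the minus strand of the same chromosome, from 74653295 to 74993202, 5 isoforms overlapped the RefSeq span of Robo2, the gene for an axon guidance receptor. Their sums were 7.59, 2.15 and 5.30 FPKM in TSCI 1 to 3, against 18.5, 6.88 and 7.88 FPKM in sham 1 to 3. There TSCI 1 was above sham 2, so the groups overlapped. The last run, 5 isoforms of 1 locus at the long noncoding gene Lncppara on chromosome 15 from 85671228 to 85706008, summed to 13.5, 3.05 and 3.77 FPKM in TSCI 1 to 3, against 8.88, 4.07 and 3.74 FPKM in sham 1 to 3. In this last run 2 of 5 fold changes were below 0 and the groups overlapped.

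The 4 longest isoforms, which include the pair of most exons by the rule for named isoforms, had overlapping groups. MSTRG.8928.8, with 34 exons and 8568 bases, overlapped Syne1, the gene of a giant protein that ties the nucleus to the cytoskeleton. It had 0.0391, 0.0825 and 2.30 FPKM in TSCI 1 to 3, against 11.7, 0 and 0.0866 FPKM in sham 1 to 3. Most of its level among the sham libraries stood in sham 1. Syne1 itself had 17.7, 7.37 and 16.3 FPKM in TSCI 1 to 3, against 35.1, 4.26 and 8.75 FPKM in sham 1 to 3, with overlapping groups. Its log2 fold change was 0.20 ± 0.78 (SE), against -0.67 for the isoform. MSTRG.11737.2, of 7 exons and 9257 bases over the long noncoding gene Gm34776, had 2.60, 0.541 and 2.61 FPKM in TSCI 1 to 3, against 2.81, 0 and 0.0955 FPKM in sham 1 to 3. MSTRG.45245.1, the longest at 9543 bases, had 1.90, 0.740 and 1.77 FPKM in TSCI 1 to 3, against 5.11, 0.147 and 0.651 FPKM in sham 1 to 3. It lay in the Robo2 run, as did MSTRG.45259.1 of 7705 bases, with 2.33, 0.468 and 1.70 FPKM in TSCI 1 to 3, against 5.68, 1.02 and 0.296 FPKM in sham 1 to 3. Sham 1 was the highest library in all 4 isoforms.

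MSTRG.47237.1 was similar in level across the libraries. With 6 exons and 3426 bases on chromosome 17, it began at 22314821, 21 bases past a RefSeq start of Gm7072. RefSeq lists that gene as protein-coding from 22285871 to 22319979, so the isoform began well inside the gene span. It also overlapped the GENCODE protein-coding gene CT030661.1 on the same strand. Its level was 4.90, 4.22 and 6.85 FPKM in TSCI 1 to 3, against 5.29, 7.25 and 3.19 FPKM in sham 1 to 3. The means were 5.32 ± 1.37 FPKM in TSCI and 5.24 ± 2.03 FPKM in sham libraries (SD, n = 3 each), and the log2 fold change was 0.06 ± 1.03 (SE), with an adjusted p of 0.994 in limma.

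Annotated long noncoding RNAs, 18 listed and 17 found, were set beside these isoforms as sums per gene. None passed limma at an adjusted p under 0.05, where 0.89% of the 16740 tested genes did. An unadjusted p under 0.05 was reached by 2, and the share of all genes at that threshold was not computed. The median log2 fold change of the 17 was 0.17, against 0.44 over all tested genes. Groups did not overlap for 3 of the 17, with 2 higher and 1 lower in TSCI, against 13.4% of genes higher and 3.13% lower. Counts this small do not set the list apart from all genes. Lncpint, a p53-induced long noncoding RNA, had 23.9, 23.2 and 13.3 FPKM in TSCI 1 to 3, against 32.0, 65.0 and 38.4 FPKM in sham 1 to 3. H19, an imprinted growth-related long noncoding RNA, had 44.9, 15.0 and 82.1 FPKM in TSCI 1 to 3, against 6.72, 4.98 and 9.5 FPKM in sham 1 to 3. Mir9-3hg, a microRNA host, was the other one above in TSCI, with 7.48, 3.86 and 3.44 FPKM in TSCI 1 to 3, against 1.95, 1.18 and 2.76 FPKM in sham 1 to 3.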

How the data were processed

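The analysis used the isoform table of 3 TSCI and 3 sham libraries, and the circular RNA table for positions only. Libraries were stranded and made from total RNA after removal of ribosomal RNA, per the labels' protocols. HISAT2, StringTie and TopHat are named, without versions, in the submitters' processing notes. For the genome build, the annotation and the circular RNA caller, no name was found in the sources used here. GENCODE M21 gave the same coordinates for 94.6% of the Ensembl transcripts that it shares with the table, so positions are stated as GRCm38.

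The authors deposited FPKM and coverage (signal) per isoform, and class codes. The ratio of FPKM to coverage was the same for every isoform of a library, from which its aligned bases follow. The circular RNA table holds estimated counts and FPKM deposited by the authors, which were not analysed here. Columns were matched to samples by name. A microglia marker and the sum that holds it are not reported here.

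The filter was a mean of 0.5 FPKM or more across the 6 libraries. What passed was tested with limma 3.58.1 (R 4.3.3), on log2(FPKM + 0.5) and with a trend of variance over the mean, a scale that understates the change of low isoforms, and Benjamini-Hochberg adjustment over all 89293. The prior degrees of freedom were infinite, so the variance is pooled. Gene values are sums of isoforms of known genes. Python 3.11.15 was used for the rest, and the functions were checked on simulated data. There the fit called 0%, 2%, 64% and 84% of isoforms given rises of 2, 4, 6 and 8 on the log2 scale. It also called 7 unchanged isoforms. An isoform that did not pass can therefore hold a change that the fit misses.

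Named isoforms were those past the threshold, the 8 of highest mean, the 8 furthest above and the 8 furthest below sham without overlap of groups and with a mean of at least 1 FPKM in the higher group, and the 4 with most exons and the 4 longest, at most 1 isoform per locus in a list (that of highest mean FPKM, so MSTRG.11737.2 of 7 exons stands for a locus that also holds MSTRG.11737.1 of 8), with genes within 10 kb. The members, lists and rules were chosen with earlier results of these data known. Single values in 3 against 3 libraries cannot reach a p below 0.1 by exact permutation. Other pseudocounts, filters, scalings and covariates, and each library left out, were tried as alternatives.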

Additional observations from a re-analysis of the deposited data

How the results depend on the processing

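The direction of the median log2 fold change of the tested isoforms, -0.41, held in all 16 alternatives, from -0.89 without both lane 8 libraries to -0.17 without sham 3. The count of called isoforms did not hold. Of multi-exon intergenic isoforms 1 was called, and of all isoforms 186. With a pseudocount of 0.1 the counts were 1 and 303, with 1 they were 0 and 145, without a filter 0 and 17, with a mean of at least 1 FPKM 0 and 60, with median-ratio scaling 0 and 115, with lane 8 as a covariate 0 and 0, without both lane 8 libraries 0 and 4, without a variance trend 0 and 156, and with sums per locus 1 and 225. At the unadjusted threshold of 0.05, the fit with the lane 8 covariate had 19 multi-exon intergenic isoforms higher (4.80%, against 4.76% of all tested isoforms) and 29 lower (7.32%, against 1.32%). Leaving out each library gave 0 to 5 multi-exon intergenic and 54 to 1010 isoforms in all, both highest without sham 1 (1.26% and 1.18% of those tested). With the replicate block the counts were 0 and 1. The reported fit did not pair libraries by number (correlations of deviations 0.05, 0.04 and 0.0006 over all tested isoforms, and 0.31, 0.22 and 0.03 over the multi-exon intergenic ones). Over all tested isoforms, only TSCI 1 and sham 2 correlated best with their own number in the other group. Over the multi-exon intergenic ones, every library except sham 3 did. TSCI 1 and sham 1 also share lane 8. The adjusted p of MSTRG.48754.1 was between 0.00168 and 0.786, and it remained called with a pseudocount of 0.1, with sums per locus and without sham 1. Leaving out a library in turn, chosen after seeing the data, gave between 31 and 66 isoforms above sham without overlap (28 with all libraries) and between 32 and 70 below (25 with all libraries). Over all tested isoforms these shares ran from 6.68% to 16.8% above and from 2.10% to 4.79% below, against 7.83% to 16.7% and 8.08% to 17.7% of the multi-exon intergenic ones.

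The fold changes of 6 named isoforms changed sign in at least 1 setting. MSTRG.41024.1 was -0.11 and MSTRG.47237.1 -0.16 with median-ratio scaling, MSTRG.47237.1 was -0.32 with sums per locus, and MSTRG.45259.1 was 0.41 and MSTRG.8928.8 1.24 without both lane 8 libraries. With 1 library left out in turn, the fold change ran from -0.23 to 1.35 for MSTRG.26370.1, from -0.26 to 0.75 for MSTRG.41024.1, from -0.43 to 1.13 for MSTRG.45245.1, from -0.75 to 0.73 for MSTRG.45259.1, from -0.23 to 0.31 for MSTRG.47237.1 and from -1.48 to 0.82 for MSTRG.8928.8. The cause was not tested, except that settings with fewer libraries or other filters test other numbers of isoforms. The planned search for polyadenylation hexamers was not run, since it needs genome sequence. Sham 2 had 2.20 gigabases in isoforms, against 3.50 to 6.42 gigabases in the other libraries, which limits what a value of 0 can show there.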
